A study of Mus musculus with 27 samples.

Results

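MiR-21 and miR-22 are 2 microRNA hairpins of mouse chromosome 11, and this account follows their 4 mature arms, mmu-miR-21a-5p, mmu-miR-21a-3p, mmu-miR-22-5p and mmu-miR-22-3p (the species prefix is left out from here on), through embryonic stem (ES) cells with and without Polycomb proteins. The 4 arms were taken by name from tables of 2035 mature microRNA loci (miRBase release 20), and all 4 were detected in every table. They were selected on their counts in the 4 genotypes, so those levels and ratios are given as a description and support nothing further. The cells were mouse ES cells of strain CJ7 grown untreated in serum with leukemia inhibitory factor (LIF), as wild-type, Eed-/-, Ezh2-/- or Jarid2-/- lines. Eed and Ezh2 are core subunits of PRC2, the complex that methylates histone H3 at silent genes, and Jarid2 is a cofactor that helps place it. How the mutant lines were made, and whether each is a single clone, is not given in the sources used here. Small RNA was sequenced, and the deposited tables hold 1 count column per genotype, so no difference between genotypes has a replicate check and no test could be made.

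A microRNA hairpin is cut into a short duplex, and usually 1 of its arms, the guide, is kept by an Argonaute protein while the other decays. The guide recognises messenger RNAs mainly through its seed, the bases near its 5′ end. MiR-21-5p is a broadly expressed microRNA that is high in fibroblasts, injured tissue and many tumours, where it restrains growth inhibitors such as Pdcd4. MiR-22-3p is also broadly expressed, rises in many differentiating cells, and is known for acting on the Tet enzymes that oxidise methylated DNA. In the RefSeq gene table for GRCm38, the Mir21a hairpin lies within the protein-coding gene Vmp1 and the Mir22 hairpin within the noncoding gene Mir22hg.

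The 4 mature arms are shown because each result below concerns 1 of these molecules, with the seed (bases 2 to 8, counted from the 5′ end) in capitals. The letters are those of the deposited tables and equal the RefSeq entries (GRCm38.p6).
miR-21a-5p: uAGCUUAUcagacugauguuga
miR-21a-3p: cAACAGCAgucgaugggcuguc
miR-22-5p: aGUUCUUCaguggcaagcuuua
miR-22-3p: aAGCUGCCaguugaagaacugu

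In the hairpins, from RefSeq, the 5p arm comes first and both arms are in capitals, which shows that the 2 products of each hairpin flank a loop of 16 bases.
Mir21a: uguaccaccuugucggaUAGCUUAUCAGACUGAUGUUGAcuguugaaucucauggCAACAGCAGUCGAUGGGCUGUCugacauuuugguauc
Mir22: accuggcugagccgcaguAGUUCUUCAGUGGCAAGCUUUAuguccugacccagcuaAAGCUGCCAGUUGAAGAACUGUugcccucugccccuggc

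On build mm9, as the tables place them, miR-21a-5p lies at chr11:86397622-86397643 and miR-21a-3p at chr11:86397584-86397605, both on the minus strand. MiR-22-5p lies at chr11:75277236-75277257 and miR-22-3p at chr11:75277274-75277295, both on the plus strand. Every arm has a seed of its own among the 4. Of the other mature names in the tables, miR-21c shares the seed of miR-21a-5p, and no other name shares that of miR-21a-3p, miR-22-5p or miR-22-3p.

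The relatives of miR-21a-5p are shown because reads of near-identical copies could be split between them.
miR-21c: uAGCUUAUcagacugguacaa
miR-21b: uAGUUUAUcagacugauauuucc
MiR-21c has the same first 15 bases as miR-21a-5p and was listed with 1 count in wild-type cells, 0 in the Eed-/- line, 0 in Ezh2-/- and 3 in Jarid2-/-. MiR-21b, which has another seed, was listed with 0, 6, 0 and 1. These copies therefore held at most 6 counts beside 47874 or more for miR-21a-5p.

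The microRNA counts totalled 23793733 in the wild-type column and 42293019, 32074712 and 8485806 in the Eed-/-, Ezh2-/- and Jarid2-/- columns, and levels are given as counts-per-million of that total (CPM). A count of 0, set at 3 counts, would allow up to 0.126 CPM in wild-type and 0.354 CPM in Jarid2-/-. Ranges in parentheses after a level, share or fold are exact 95% binomial (Clopper-Pearson) ranges for counting error alone, since amplified reads are not independent molecules and no replicate spread can be had. ES cell microRNAs of the miR-290 and miR-302 clusters (20 arms of 10 microRNAs) summed to between 322021 CPM (Jarid2-/-) and 374258 CPM (wild-type), with 0 arms undetected in any column. That list left out miR-292, because it had been entered as miR-292a. With miR-292 added after the values were seen, the sums of 22 arms were 404609, 452048, 453563 and 387913 CPM in wild-type, Eed-/-, Ezh2-/- and Jarid2-/-. After adding 1 CPM, 11, 2 and 10 of these arms were at least 2-fold higher and 0, 3 and 1 at least 2-fold lower in Eed-/-, Ezh2-/- and Jarid2-/-. Of all mature names 15.3%, 5.32% and 15.1% were higher and 16.2%, 25.6% and 24.8% lower. The 2 most abundant arms of the list were not called higher in any mutant. In Eed-/-, Ezh2-/- and Jarid2-/- the log2 ratios were -0.4, 0.11 and -0.01 for miR-294-3p and -0.01, -0.31 and -1.07 for miR-293-3p. Arms of the same hairpin are not independent members of this list.

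MiR-21a-5p was the most abundant of the 4 arms in every genotype and was highest in Eed-/- cells. Its level was 7009.6 CPM in wild-type (166785 counts), 15222 CPM in Eed-/- (643779 counts), 4851 CPM in Ezh2-/- (155588 counts) and 5642 CPM in Jarid2-/- (47874 counts). The Eed-/- column stood apart, while the other 3 lay within a range from 4851 to 7009.6 CPM. By abundance it ranked 18 of 1900 mature names in wild-type cells, 10 in the Eed-/- line, 23 in Ezh2-/- and 24 in Jarid2-/-. In Eed-/- it was 2.17-fold higher than in wild-type (2.16 to 2.18), and in Jarid2-/- 1.24-fold lower (1.23 to 1.26). In Ezh2-/- it was 1.45-fold lower than in wild-type (1.44 to 1.46). Its share of all microRNA counts was 0.701% in wild-type and 1.52% in Eed-/-.

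MiR-21a-3p, the arm that is usually discarded, was present at a small fraction of the 5p level. It stood at 42.4 CPM in wild-type (1009 counts), 75.1 in Eed-/- (3177 counts), 17.2 in Ezh2-/- (551 counts) and 21.7 in Jarid2-/- (184 counts). Its order over the genotypes was that of the 5p arm, with Eed-/- highest and Ezh2-/- lowest, and in Ezh2-/- it was 1.26-fold lower than in Jarid2-/- (1.06 to 1.49). Against wild-type it was 1.77-fold higher in Eed-/- (1.65 to 1.90), 2.47-fold lower in Ezh2-/- (2.22 to 2.74) and 1.96-fold lower in Jarid2-/- (1.67 to 2.30).

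MiR-22-3p, the arm known as the guide of its hairpin, was nearly lost from the Jarid2-/- column alone. Its level was 499.7 CPM in wild-type (11889 counts), 351 CPM in Eed-/- (14833 counts), 329 CPM in Ezh2-/- (10541 counts) and 9.90 CPM in Jarid2-/- (84 counts). It ranked 124 of 1900 mature names in wild-type cells, 129 in the Eed-/- line, 107 in Ezh2-/- and 417 in Jarid2-/-. In Jarid2-/- it was 50.5-fold lower than in wild-type (40.7 to 63.3). The other mutants lay close to wild-type, 1.43-fold lower in Eed-/- (1.39 to 1.46) and 1.52-fold lower in Ezh2-/- (1.48 to 1.56).

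MiR-22-5p, cut from the same hairpin, varied far less. It stood at 34.0 CPM in wild-type (810 counts), 36.5 in Eed-/- (1545 counts), 26.1 in Ezh2-/- (836 counts) and 20.6 in Jarid2-/- (175 counts). Its Eed-/- level did not differ from wild-type beyond counting error (1.07-fold, 0.985 to 1.17). In Ezh2-/- it was 1.31-fold lower (1.18 to 1.44) and in Jarid2-/- 1.65-fold lower (1.40 to 1.96). In Jarid2-/- cells miR-22-5p was therefore the more abundant arm, by 2.08 counts to 1, whereas in wild-type miR-22-3p exceeded it by 14.7 to 1.

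**Figure D1:**
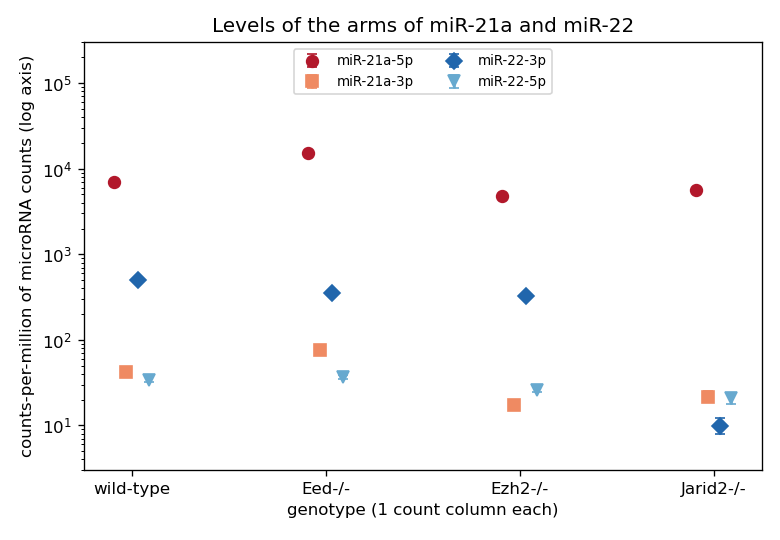
Level of each arm in each genotype, in counts-per-million of microRNA counts on a log axis, with exact 95% binomial ranges where they are larger than the symbols. MiR-21a-5p is highest in Eed-/- at 15222 CPM, and miR-22-3p lies between 329 and 499.7 CPM in 3 columns but at 9.90 CPM in Jarid2-/-, under miR-22-5p at 20.6 CPM.

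Set against all microRNA loci, 1 of the 4 arms was called in each mutant, and many other loci were called as well. For this, 1 CPM was added to both levels, and a locus counted as called where the resulting log2 ratio reached 1 or -1; loci under 10 counts in both columns were not compared. In Eed-/-, 1 of the 4 arms was called higher (miR-21a-5p, log2 ratio 1.12), where 17.5% of 1096 loci were called higher, and 0 were called lower, where 15.0% were. In Ezh2-/-, 1 was called lower (miR-21a-3p, -1.26), where 24.5% of 1000 loci were, and 0 higher, where 4.90% were. In Jarid2-/-, 1 was called lower (miR-22-3p, -5.52), where 22.8% of 950 loci were, and 0 higher, where 16.3% were. The rule that chose the arms used these contrasts, so nothing is read from these counts.

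The size of the miR-22-3p ratio in Jarid2-/- placed it near the bottom of all loci. Of the 950 loci, 7 were as low, itself included, which is a description only because the arms were chosen on these contrasts. The 6 others were miR-409-3p, miR-337-3p and miR-337-5p of the imprinted Gtl2-Rian-Mirg cluster and the 3 loci of the neural miR-124-3p. By contrast miR-21a-5p in Eed-/- was one of 159 loci with a ratio of at least its size. The median over all loci was 0.08, -0.44 and -0.17 in Eed-/-, Ezh2-/- and Jarid2-/-.

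**Figure D2:**
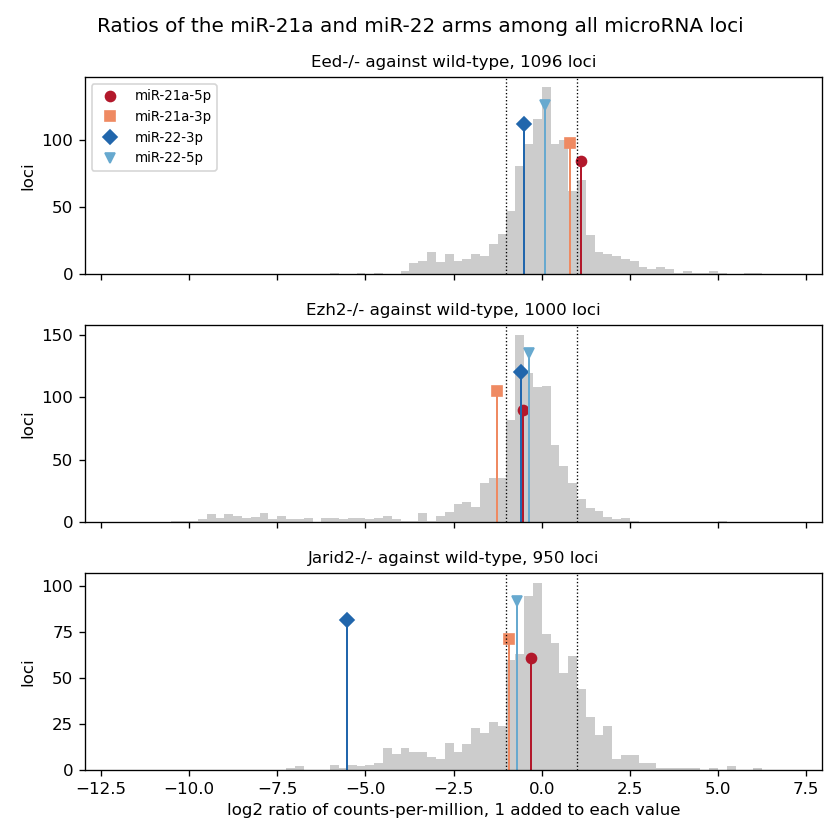
Number of microRNA loci by log2 ratio of CPM against wild-type, after adding 1 CPM to both levels, for Eed-/-, Ezh2-/- and Jarid2-/-, with the miR-21a and miR-22 arms marked and dotted lines at -1 and 1. MiR-22-3p lies at -5.52 in Jarid2-/-, and miR-21a-5p just beyond the upper line at 1.12 in Eed-/-.

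Scaling changed some of these calls. With TMM factors and with median-ratio size factors, miR-21a-5p in Eed-/- had log2 ratios of 0.99 and 0.90, under the size that is called, and with the read denominators of the authors it had 1.83. The miR-21a-3p ratio in Ezh2-/-, -1.30 with nothing added, was -0.57, -0.79 and -0.86 under the same scalings and so not called. MiR-22-3p in Jarid2-/- stayed between -5.81 and -5.16 under all scalings tried. The smaller ratios of miR-21a-5p in Ezh2-/- and Jarid2-/-, of miR-22-3p in Eed-/- and Ezh2-/- and of miR-22-5p in Eed-/- and Ezh2-/- took both signs over these scalings.

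The mutants were also compared with one another, without the wild-type column. MiR-21a-5p was 3.14-fold higher in Eed-/- than in Ezh2-/- (3.12 to 3.16) and 2.70-fold higher than in Jarid2-/- (2.67 to 2.72). MiR-21a-3p differed in the same direction, by 4.37-fold (3.99 to 4.80) and 3.46-fold (2.99 to 4.04). Both arms were called higher in Eed-/- in each of these comparisons, where 35.7% of loci were higher in Eed-/- than in Ezh2-/- and 18.9% higher than in Jarid2-/-. MiR-22-3p was 35.4-fold higher in Eed-/- than in Jarid2-/- (28.6 to 44.5) and 33.2-fold higher in Ezh2-/- than in Jarid2-/- (26.8 to 41.7), and was called higher in both. In the latter comparison 8.92% of loci were called higher. Between Eed-/- and Ezh2-/- miR-22-3p differed by 1.07-fold (1.04 to 1.09), and no miR-22-5p ratio between mutants was called.

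The arms of a hairpin come from the same precursor, and their ratio within a column, as for any pair of counts there, does not depend on how columns are scaled. For miR-21a the 5p arm held 99.4% of the counts of both arms in wild-type (99.36 to 99.44%). It held 99.5% in Eed-/- (99.49 to 99.53%), 99.65% in Ezh2-/- (99.62 to 99.68%) and 99.6% in Jarid2-/- (99.56 to 99.67%). The 5p arm thus dominated in all 4 genotypes, though its excess over the 3p arm ran from 165 counts to 1 in wild-type to 282 to 1 in Ezh2-/-. For miR-22 the 3p arm held 93.6% in wild-type (93.2 to 94.0%). It held 90.6% in Eed-/- (90.1 to 91.0%) and 92.7% in Ezh2-/- (92.2 to 93.1%). In Jarid2-/- it held 32.4% (26.8 to 38.5%), or 84 of 259 counts. The Jarid2-/- column alone lay apart, and its interval was wider because it rested on few counts.

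**Figure D3:**
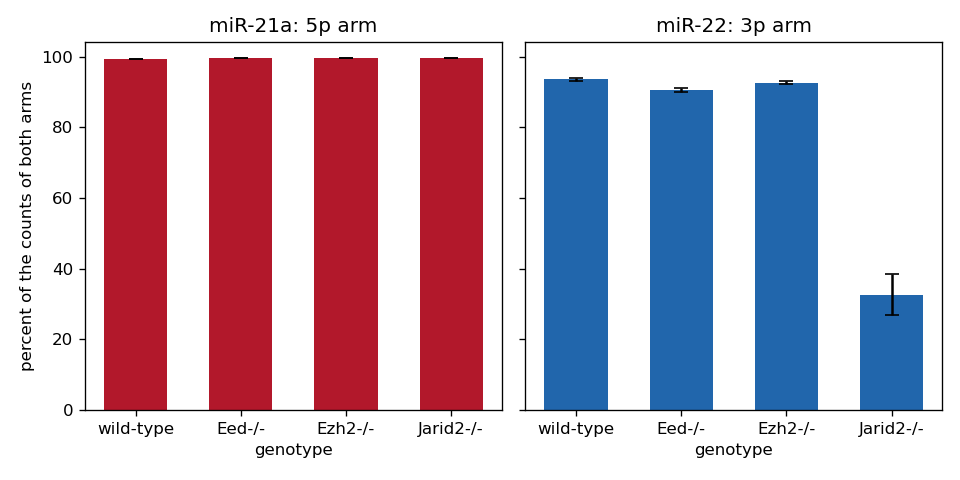
Percent of the counts of both arms that fell on the usual guide arm, by genotype, for miR-21a (5p) and miR-22 (3p), with exact 95% binomial intervals. The miR-21a share lies above 99% in every column, and the miR-22 share is 32.4% in Jarid2-/- against 90.6 to 93.6% in the other columns.

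Summed over both arms, miR-22 went from 534 CPM in wild-type to 30.5 CPM in Jarid2-/-, which was 17.5-fold lower (15.5 to 19.9). In Eed-/- the sum was 1.38-fold lower (1.35 to 1.41) and in Ezh2-/- 1.51-fold lower (1.47 to 1.54). The miR-21a sum was 2.17-fold higher in Eed-/- (2.16 to 2.18).

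Shifts between arms were common in these columns, so the miR-22 shift was set beside those of all hairpins. Hairpins with both arms listed and at least 100 counts in both columns were compared by the log2 ratio of 3p to 5p counts, with 0.5 counts added to each arm. The miR-22 ratio moved towards the 5p arm by 30.5-fold in Jarid2-/- (log2 shift -4.93). The log2 shift was -0.61 in Eed-/- and -0.22 in Ezh2-/-. For miR-21a the shifts were -0.29, -0.77 and -0.65 in Eed-/-, Ezh2-/- and Jarid2-/-. A shift of at least 2-fold either way was seen in 50.0% of 236 hairpins in Jarid2-/-, in 43.3% of 289 in Eed-/- and in 33.6% of 229 in Ezh2-/-, and one towards the 5p arm in 32.6%, 28.0% and 14.8%. By that size miR-22 shifted in Jarid2-/- alone, and miR-21a in no mutant. The Jarid2-/- background was therefore high. A shift as large as that of miR-22, in either direction, was seen in 7 of the 236 hairpins, miR-22 included. The 6 others were miR-124, miR-350, miR-6546, miR-7b, miR-294 and miR-295. Of these, miR-6546 shifted towards the 3p arm (log2 shift 5.69) and the rest towards the 5p arm. For miR-350 and miR-6546 an arm was listed at 0 in 1 of the columns. The miR-22 arms were chosen on these counts, so nothing is read from the place of miR-22 among the hairpins. MiR-294 and miR-7b also shifted towards the 5p arm in Eed-/-, by -6.58 and -6.35.

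**Figure D4:**
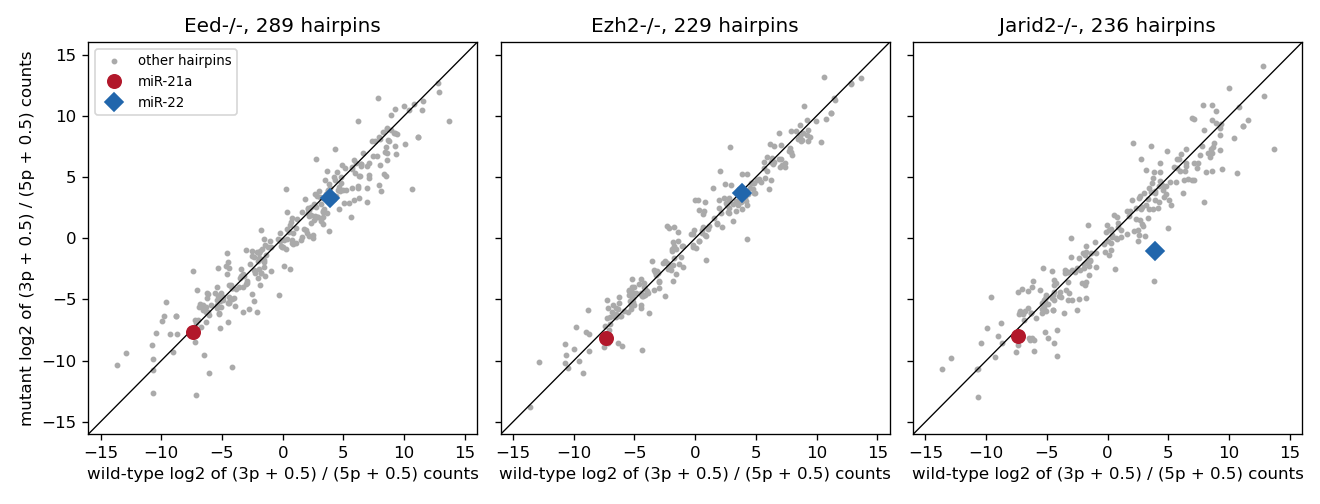
Log2 ratio of 3p to 5p counts of each hairpin, with 0.5 counts added to each arm, in wild-type (horizontal) and in each mutant (vertical), for hairpins with at least 100 counts in both columns. The line marks equal ratios. MiR-21a lies near it in all 3 mutants and miR-22 lies 4.93 below it in Jarid2-/-.

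The microRNAs whose pattern over the 4 columns was most like that of miR-22-3p were sought among 722 mature names with at least 50 counts in 1 column. Likeness was the root mean square difference of log2 CPM, with 1 CPM added, after centring each microRNA on its mean. The 5 nearest were miR-124-3p (0.62), miR-320-3p (0.71), miR-15b-3p (0.85), miR-143-3p (0.91) and miR-196a-5p (0.92), against a median of 2.36 over all candidates. Each was low in Jarid2-/-, which follows from choosing them by likeness to miR-22-3p, so nothing is read from it. They differed in the other mutants. MiR-124-3p, a neuronal microRNA, had 1014 CPM in wild-type cells, 993 in the Eed-/- line, 1599 in Ezh2-/- and 15.7 in Jarid2-/-. MiR-320-3p had 544, 579, 517 and 44.2 CPM in the same order. MiR-143-3p, known from smooth muscle and fibroblasts, had 179, 49.9, 43.1 and 5.54 CPM.

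For miR-124 and miR-15b the low level in Jarid2-/- again concerned 1 arm. MiR-124-3p was 64.7-fold lower in Jarid2-/- than in wild-type (54.6 to 77.3), while miR-124-5p was 2.44-fold higher (1497 against 1720 counts). MiR-15b-3p was 11.1-fold lower (9.56 to 12.9), while miR-15b-5p, the guide of its hairpin, was 1.58-fold higher (67949 against 120986 counts). MiR-320-3p was 12.3-fold lower (11.1 to 13.7). MiR-320-5p had 7 counts against 18, which is 0.82 against 0.76 CPM and rests on few counts. MiR-143-5p had 4 counts against 1, too few to compare, and miR-196a-5p has no second arm under the same name in the tables.

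The mature letters of 4 of the 5 are shown, seeds in capitals, so that they can be set beside miR-22-3p.
miR-124-3p: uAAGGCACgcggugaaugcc
miR-320-3p: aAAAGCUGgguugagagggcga
miR-15b-3p: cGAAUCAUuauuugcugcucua
miR-196a-5p: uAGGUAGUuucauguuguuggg
None of these 4 has the miR-22-3p seed, and the longest run of letters shared with miR-22-3p was 6 bases, in miR-320-3p. Their GC content ranged from 36.4% (miR-15b-3p) to 60.0% (miR-124-3p), with miR-22-3p at 45.5%.

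The nearest patterns to miR-21a-5p lay at smaller distances. Of the 5, 3 belong to the microRNA cluster within an intron of Sfmbt2, a large family of near-identical copies. The 5 were miR-466h-5p (0.08), miR-467a-5p (0.08), miR-467b-5p (0.08), miR-184-3p (0.14) and miR-224-3p (0.14), against a median of 0.84 over the 722 candidates. That median was also below the 2.36 for miR-22-3p, and distances were not scaled for how widely a microRNA varied. MiR-467a-5p had 781 CPM in wild-type cells, 1957 in the Eed-/- line, 547 in Ezh2-/- and 689 in Jarid2-/-. The values of miR-467b-5p were nearly the same, and the 2 names share most of their letters, so their counts are not independent, and miR-467a-5p itself is listed at 10 loci. MiR-466h-5p had 16.1, 37.2, 9.54 and 12.6 CPM. MiR-184-3p and miR-224-3p reached 50 counts in Eed-/- alone, so they entered the comparison only through the column where they are high, and nothing is read from their peak there. They were low, at 2.06 and 0.504 CPM in wild-type, where the 1 CPM added is as large as much of the level.
miR-467a-5p: uAAGUGCCugcauguauaugcg
miR-467b-5p: gUAAGUGCcugcauguauaug
miR-466h-5p: uGUGUGCAugugcuugugugua
These 3, which come from the same cluster, are printed to show that they differ in sequence from miR-21a-5p: the longest run shared with it was 4 bases in each. The seed of miR-467a-5p is also that of miR-290a-3p and miR-292-3p of the ES cell miR-290 cluster.

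**Figure D5:**
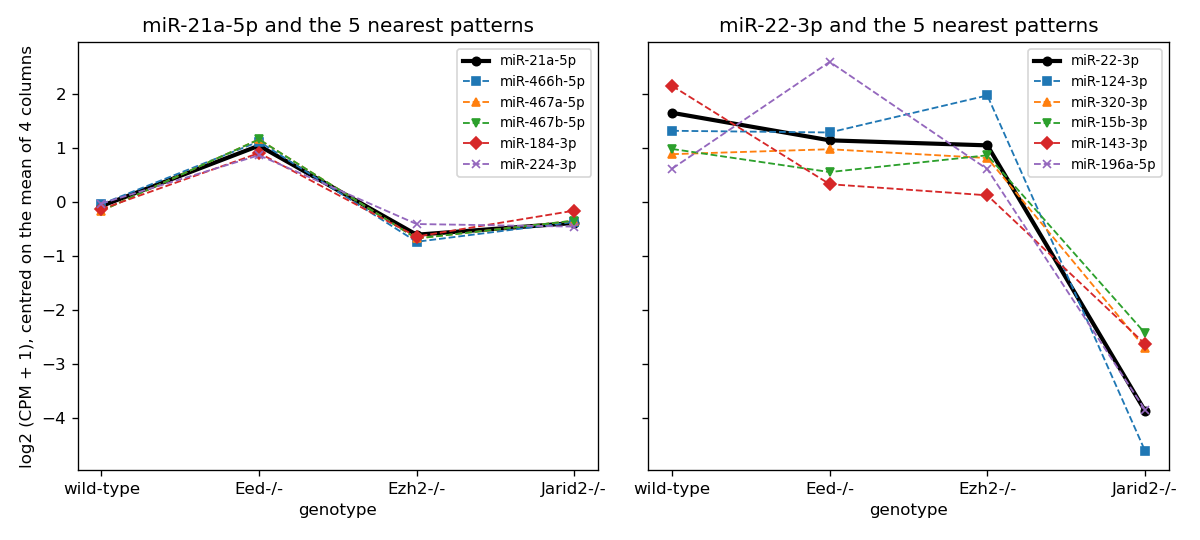
Log2 (CPM + 1) over the 4 genotypes, centred on the mean of each microRNA, for miR-21a-5p and miR-22-3p (black) and the 5 microRNAs with the nearest patterns. The miR-21a-5p set peaks in Eed-/- with distances of 0.08 to 0.14, and the miR-22-3p set is lowest in Jarid2-/- with distances of 0.62 to 0.92. Both sets were chosen by this likeness, so nothing is read from the shared shape. MiR-184-3p and miR-224-3p entered only through their Eed-/- counts, so nothing is read from their peak there.

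The closest microRNA loci on the chromosome lie far from both hairpins, and their arms were divided. MiR-132, a neuronal activity-linked microRNA, lies 290.0 kb from the miR-22 hairpin. Its 3p arm had 12.5, 13.4, 9.17 and 23.9 CPM in wild-type, Eed-/-, Ezh2-/- and Jarid2-/-, highest where miR-22-3p was lowest. Its 5p arm had 8.66, 9.43, 6.92 and 6.48 CPM, lowest in Jarid2-/- but with a log2 ratio of -0.37 beside -5.52 for miR-22-3p. On the other side miR-3971, 87.7 kb away, had 1, 0, 0 and 3 counts. MiR-301a lies 529 kb from the miR-21a hairpin, and its abundant 3p arm had 3233, 3340.3, 1792 and 2975 CPM. That is the order of miR-21a-5p over the genotypes, but with a log2 ratio of 0.05 in Eed-/- beside 1.12 for miR-21a-5p. Its 5p arm had 55.0, 40.9, 18.2 and 32.5 CPM, highest in wild-type. On the other side of miR-21a, miR-5110 was listed at 0 in all 4 columns.

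Other microRNAs known for growth, stress and injury responses, the setting in which miR-21 is best known, were mostly lower in Jarid2-/-. The list held 12 microRNAs with 23 arms. Of 22 compared in Jarid2-/-, 15 were called lower and 2 higher, with a median log2 ratio of -1.28, where 24.8% of 836 mature names were called lower, 15.1% higher, and the median of all was -0.21. The median stayed negative under every scaling, from -1.43 to -0.78. The 2 higher arms were miR-34a-3p (1.02) and miR-31-3p (1.09), while the 5p arms of the same hairpins were called lower (-1.26 and -1.91). Arms of the same hairpin are not independent members of the list. In Ezh2-/- 9 of 23 were lower and 1 higher (median -0.53, or from -0.51 to -0.01 under the other scalings), where 25.6% of 884 names were lower and 5.32% higher (median -0.42). In Eed-/- 7 were lower and 4 higher, where 16.2% of 977 names were lower and 15.3% higher. The median there was -0.36, or 0.33 with the denominators of the authors, beside 0.03 for all names. MiR-34a-5p, a p53-induced microRNA, had 11211 CPM in wild-type cells, 4929 in the Eed-/- line, 10641 in Ezh2-/- and 4678 in Jarid2-/-. MiR-24-3p had 6051, 3742, 3313 and 2472 CPM.

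A list named for targets shared with miR-22 held members called in both directions. Of microRNAs reported to act on Tet enzymes (15 arms of 9 microRNAs), 2 were higher and 2 lower in Eed-/-, 1 and 6 in Ezh2-/-, and 2 and 3 in Jarid2-/-. Of all mature names 15.3%, 5.32% and 15.1% were higher and 16.2%, 25.6% and 24.8% lower in the same mutants. The medians of the list were 0.15, -0.78 and -0.47. Over the other scalings they ran from -0.05 to 0.80, from -0.74 to -0.22 and from -0.61 to -0.02. In wild-type, Eed-/-, Ezh2-/- and Jarid2-/- cells miR-26a-5p had 2797, 2031, 2020 and 2453 CPM and miR-29b-3p 1888, 1198, 1102 and 562. MiR-29a stands on this list and on the growth, stress and injury list.

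MiR-21 is abundant in fibroblasts, so markers of other cells were set beside it. Fibroblast and mesenchymal microRNAs (15 arms of 8 microRNAs) summed to 2323 CPM in wild-type cells, 1028 in the Eed-/- line, 1397 in Ezh2-/- and 1196 in Jarid2-/-, with 0, 0, 2 and 1 arms at 0 counts. By column totals their sum was thus lowest in Eed-/-, where miR-21a-5p was highest, but the median log2 ratio was lowest in Ezh2-/-. The part of fibroblasts in the miR-21a-5p level was not tested. In Eed-/- 0 of 12 compared were called higher while 5 were lower. In Ezh2-/- 9 of 12 were lower and in Jarid2-/- 6 of 12, with 0 higher in both. Of all mature names 15.3%, 5.32% and 15.1% were higher and 16.2%, 25.6% and 24.8% lower in the Eed-/-, Ezh2-/- and Jarid2-/- lines. The medians of the list were -0.90, -1.61 and -0.72, negative under every scaling. MiR-145a-5p had 1079, 417, 462 and 481 CPM and miR-125b-5p 529, 327, 702 and 251. MiR-214-3p, a mesenchymal microRNA, had 128, 50, 4 and 3 counts. MiR-199a-3p and miR-199b-3p of the list had 3700 and 3702 counts in wild-type cells and nearly equal counts in each mutant. Their counts are therefore not independent, and both were called lower in Eed-/- and in Ezh2-/-.

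In the other marker lists few microRNAs held most of the counts. Neural microRNAs (7 arms) summed to 1305, 1330, 2016 and 360 CPM in wild-type, Eed-/-, Ezh2-/- and Jarid2-/-. MiR-124-3p was the most abundant of them except in Jarid2-/-, where miR-124-5p (176 CPM) and miR-128-3p (161 CPM) were higher. Without miR-124-3p, which is among the nearest patterns to miR-22-3p, the neural sums were 291, 337, 418 and 344.5 CPM, so Jarid2-/- was then above wild-type. Endoderm and epithelial microRNAs (9 arms) summed to 2077, 1388, 1531 and 4611 CPM, led by miR-205-5p (1554, 1011, 147 and 4088) and miR-192-5p (413, 317, 1257 and 436). Blood cell microRNAs (9 arms) summed to 5887, 4627, 9342 and 2870 CPM, nearly all of it miR-150-5p (5527, 4595, 9074 and 2769), while miR-142-5p had 213, 2.44, 134 and 39.2. Of 6 neural arms compared, 2, 1 and 1 were called higher and 0, 1 and 1 lower in Eed-/-, Ezh2-/- and Jarid2-/-. For endoderm and epithelial arms these counts were 0, 2 and 1 higher and 1, 2 and 1 lower, of 7, 6 and 6. For blood cell arms they were 1, 1 and 1 higher and 3, 0 and 2 lower, of 6, 6 and 5. With 15.3%, 5.32% and 15.1% of all mature names higher and 16.2%, 25.6% and 24.8% lower, lists this short differ from those shares by few arms. The neural and blood cell sums, like miR-22-3p, were lowest in the Jarid2-/- column, while the endoderm and epithelial sum was highest there. Without miR-124-3p the neural sum was not lowest there, and miR-142-5p of the blood cell list was lowest in Eed-/-. The part of other cell types in the miR-22-3p difference was not tested. In bulk RNA, fewer cells that make a microRNA and less of it per cell cannot be told apart.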

How the data were processed

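Small RNA of 18 to 40 nt was sequenced on a SOLiD instrument, per the labels' protocols, and cutadapt, Bowtie and build mm9 are listed in the submitters' processing notes. For versions, settings and multiply mapped reads, nothing is given in the sources used here. The authors deposited, per the file headers, a read count per mature locus and the same value as RPM. The denominators behind RPM were recovered as count over RPM. Columns were matched to genotypes by name (the Jarid2-/- column carries the older name Jumonji, the wild-type column only the line's name). Small RNA samples number 1 for Jarid2-/- and 2 for each other genotype, per the labels, and whether a column pools both is not given.

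CPM, ratios, exact binomial intervals (scipy 1.17.1), calls, arm shares and likeness were computed from the counts. The named microRNAs are the 4 arms, the 5 nearest patterns to each guide, seed sharers, chromosomal neighbours and the 2 most abundant arms per list. A further list is not reported here. Members, lists and rules were chosen with earlier results of these data known. The comparison of arms over all hairpins, and the microRNAs named in it or among the lowest loci, were added after the values were seen. So were miR-214-3p, miR-124-5p, miR-199a-3p, miR-199b-3p, miR-34a-3p and both arms of miR-31. The second arms of neighbours, the sums with miR-292 and the neural sums without miR-124-3p were also added then. For mature names with several loci the locus with most counts was used in lists and likeness. Alternatives were TMM (edgeR 4.0.16), median-ratio size factors (DESeq2 1.42.0), RPM denominators, totals without the miR-290 and Gtl2-Rian-Mirg clusters, thinning to the Jarid2-/- total, other count minimums (1, 100) and pseudocounts (0.1, 10 CPM), 1 value per mature name and summed arms. The procedure was tested on simulated counts that held counting error alone, so the reliability of a call across libraries was not tested.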

Additional observations from a re-analysis of the deposited data

Results flagged for a closer look

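The miR-21a arms lay on opposite sides of wild-type in different mutants, with counting intervals that left out equality on each side. The log2 ratio of miR-21a-5p was 1.12 in Eed-/-, -0.53 in Ezh2-/- and -0.31 in Jarid2-/-. That of miR-21a-3p was 0.82 in Eed-/-, -1.30 in Ezh2-/- and -0.97 in Jarid2-/-. With 1 column per genotype the difference between mutants was not tested, and the sign of miR-21a-5p in Ezh2-/- and Jarid2-/- changed with the scaling.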

How the results depend on the processing

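No paired analysis was possible because each genotype has a single column, and for the same reason no replicate could be left out. The miR-22-3p ratio in Jarid2-/- (log2 -5.66) was -5.16 with the RPM denominators and -4.13 with both arms summed. With TMM, median-ratio factors, RPM denominators and totals outside the 2 clusters, miR-21a-5p had log2 ratios of 0.99, 0.90, 1.83 and 1.13 in Eed-/-, 0.20, -0.01, -0.09 and -0.50 in Ezh2-/-, and -0.34, -0.43, 0.18 and -0.46 in Jarid2-/-. With the first 3 scalings miR-22-3p had -0.64, -0.73 and 0.20 in Eed-/- (-0.46 with both arms summed) and 0.12, -0.09 and -0.16 in Ezh2-/-. Thinned to the Jarid2-/- total, the miR-21a 5p share in Ezh2-/- was 99.6% and the miR-22 3p share in Eed-/- 91.0%.

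Background counts of called loci depended on the scaling. Higher against lower loci in Eed-/- were 192 against 164, or 350 against 106 with RPM denominators and 130 against 194 with median-ratio factors. In Ezh2-/- they were 49 against 245, or 144 against 163 with TMM, 110 against 189 with median-ratio factors and 93 against 185 with RPM denominators. In Jarid2-/- they were 155 against 217, or 253 against 176 with RPM denominators. With 10 CPM added, 105, 26 and 95 loci were higher in Eed-/-, Ezh2-/- and Jarid2-/- and 160 lower in Ezh2-/-, and with 0.1 CPM added 87 were higher in Ezh2-/-. The cause of these changes was not tested. Between 3 and 5 of the 5 nearest patterns to miR-21a-5p and miR-22-3p were shared across scalings. Jarid2-/- had the fewest counts, and its miR-22 share rests on 259.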
